A study of Mus musculus with 18 samples.

Results

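The defensins are the 57 gene rows, of 23063 in the deposited tables, whose symbol starts with Defa (14 alpha defensins) or Defb (43 beta defensins). Of these symbols, 4 carry a pseudogene suffix. RNA-seq was run on sorted thymic epithelium from mice aged 6 to 8 weeks in 6 groups of 3 libraries. The groups were mTEChi from Aire KO and from WT mice, mTEClo from Aire KO and from WT mice, and cTEC from Aire KO and from WT mice. mTEC and cTEC are the medullary and cortical thymic epithelial cells, and the labels do not say which protein the hi and lo gates measure. The strain label is B6.129S2-Airetm1.1Doi/J for every group, WT included, so no other allele or agent separates the groups in the labels. Nothing in the labels says if replicates came from separate mice or preparations, so p-values measure only the spread between these libraries.

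Defensins are small cationic peptides, folded by disulfide bonds, that damage microbial membranes. In mice, alpha defensins are secreted by the Paneth cells of the small intestine, which do so after the protease Mmp7 has cut the propeptide. Beta defensins are made by many epithelia, and a large number of them are known from the epididymis. Medullary thymic epithelium transcribes genes of many peripheral tissues, which exposes developing T cells to the encoded proteins, and Aire is the nuclear protein that drives much of this transcription in mTEChi.

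The members lie in 5 clusters on the mm10 build. There were 3 on chr1:18210053-18251333, 11 on chr2:152459055-152623053, 16 on a proximal block chr8:18974940-19497775, 22 on a distal block chr8:20892667-21948622, and 5 on chr14:62977524-63048606. By symbol, the alpha defensins were 12 of the 22 distal and 2 of the 16 proximal chromosome 8 members. The 2 proximal ones are the pseudogenes Defa-ps12 and Defa-ps13, which RefSeq lists with the synonyms Defb46-ps and Defb54-ps. Coordinates are those of the authors' tables. Values are RPKM, the authors' level per kilobase of gene model, so levels of different defensins can be set side by side on that scale. Library depth was 4.54 to 18.1 Gb of aligned bases on genes, with 6.25, 11.6 and 10.1 Gb in KO mTEChi and 10.8, 13.4 and 15.6 Gb in WT mTEChi.

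The labelled populations were checked by their markers. Aire averaged 1073 ± 64.5 RPKM in KO mTEChi and 677 ± 17.9 RPKM in WT mTEChi (SD, n = 3 each). That value covers the whole gene row and does not test for the deletion. The cortical proteasome subunit Psmb11 averaged 13.9 RPKM in KO cTEC and 17.8 RPKM in WT cTEC, and 0.727 to 1.84 RPKM in the other groups. Not all of the 7 listed cortical markers ranked cTEC above mTEChi. By the limma test described below, 4 of the 7 favoured WT cTEC over WT mTEChi and 2 went the other way. For KO cTEC against KO mTEChi the split was 4 and 3. For WT cTEC against WT mTEClo it was 6 and 0. The KO cTEC libraries differed from the WT cTEC libraries in medullary markers. Aire was 95.6, 35.9 and 27.0 RPKM in KO cTEC and 2.09, 3.95 and 7.39 RPKM in WT cTEC, and 6 of 8 tested medullary markers were higher in KO cTEC. KO cTEC replicate 1 also had the lowest library weight of all 18 libraries (0.173 in limma's arrayWeights).

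The count of detected defensins was highest in WT mTEChi, as was that of all rows. At 0.1 RPKM or more, 11, 12 and 13 defensins were detected in the KO mTEChi libraries, against 42, 36 and 38 in the WT mTEChi libraries. Of all 23063 rows, 16428 to 16512 were detected at that level in KO mTEChi, against 19428 to 19558 in WT mTEChi. The mTEClo libraries detected 9, 8 and 8 in KO and 12, 8 and 10 in WT, and the cTEC libraries 7, 7 and 5 in KO and 3, 6 and 6 in WT. In KO mTEChi, 32 of the 57 defensins were listed at 0 in all 3 libraries, against 5 in WT mTEChi. In the other groups 40 (KO mTEClo), 27 (WT mTEClo), 42 (KO cTEC) and 44 (WT cTEC) were listed at 0 throughout. By group mean, 45 defensins were highest in WT mTEChi, 5 in KO mTEChi, 1 in KO cTEC and 2 in WT cTEC, and 4 (Defa3, Defa20, Defb9 and Defb10) were at 0 in every library.

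**Figure D1:**
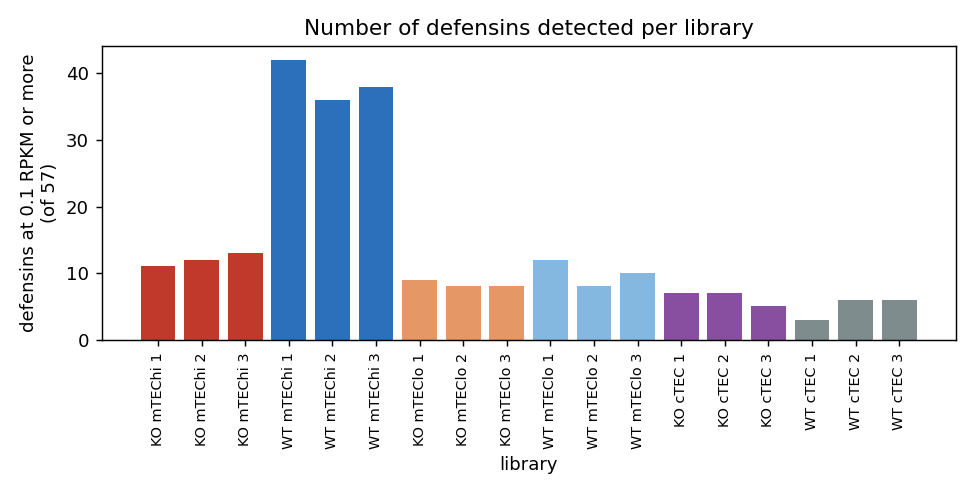
Number of the 57 defensins at 0.1 RPKM or more in each of the 18 libraries, with 1 bar per library and KO beside WT for each population. The WT mTEChi bars stand at 42, 36 and 38, while the KO mTEChi bars stand at 11 to 13.

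A few abundant members made up most of the summed level. The sum over all 57 was 77.2, 82.4 and 69.3 RPKM in KO mTEChi, against 198.9, 214.1 and 164.5 RPKM in WT mTEChi. Rows that RefSeq lists as defensins under other symbols are not in these sums, and they went both ways. Gm15056 (synonym Defb52) averaged 81.6 RPKM in KO mTEChi and 14.9 RPKM in WT mTEChi. Gm14851 (Defa38) averaged 0 and 4.33 RPKM. The sums and the shares below therefore depend on the symbol rule. The alpha defensins summed to 0, 0.0440 and 0.128 RPKM in KO mTEChi and to 15.3, 14.2 and 12.0 RPKM in WT mTEChi. The alpha sum was therefore near 0 in every KO mTEChi library and far from 0 in every WT mTEChi library. Defb6 alone made up 47.3% to 54.1% of the summed level in KO mTEChi and 43.9% to 45.9% in WT mTEChi. Defb42 made up 28.6% to 31.0% in KO mTEChi and 5.01% to 6.57% in WT mTEChi. In WT cTEC a single gene, Defb1, made up 95.7% to 99.2%. In bulk libraries such as these, fewer cells that express a gene and less RNA per cell cannot be told apart.

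**Figure D2:**
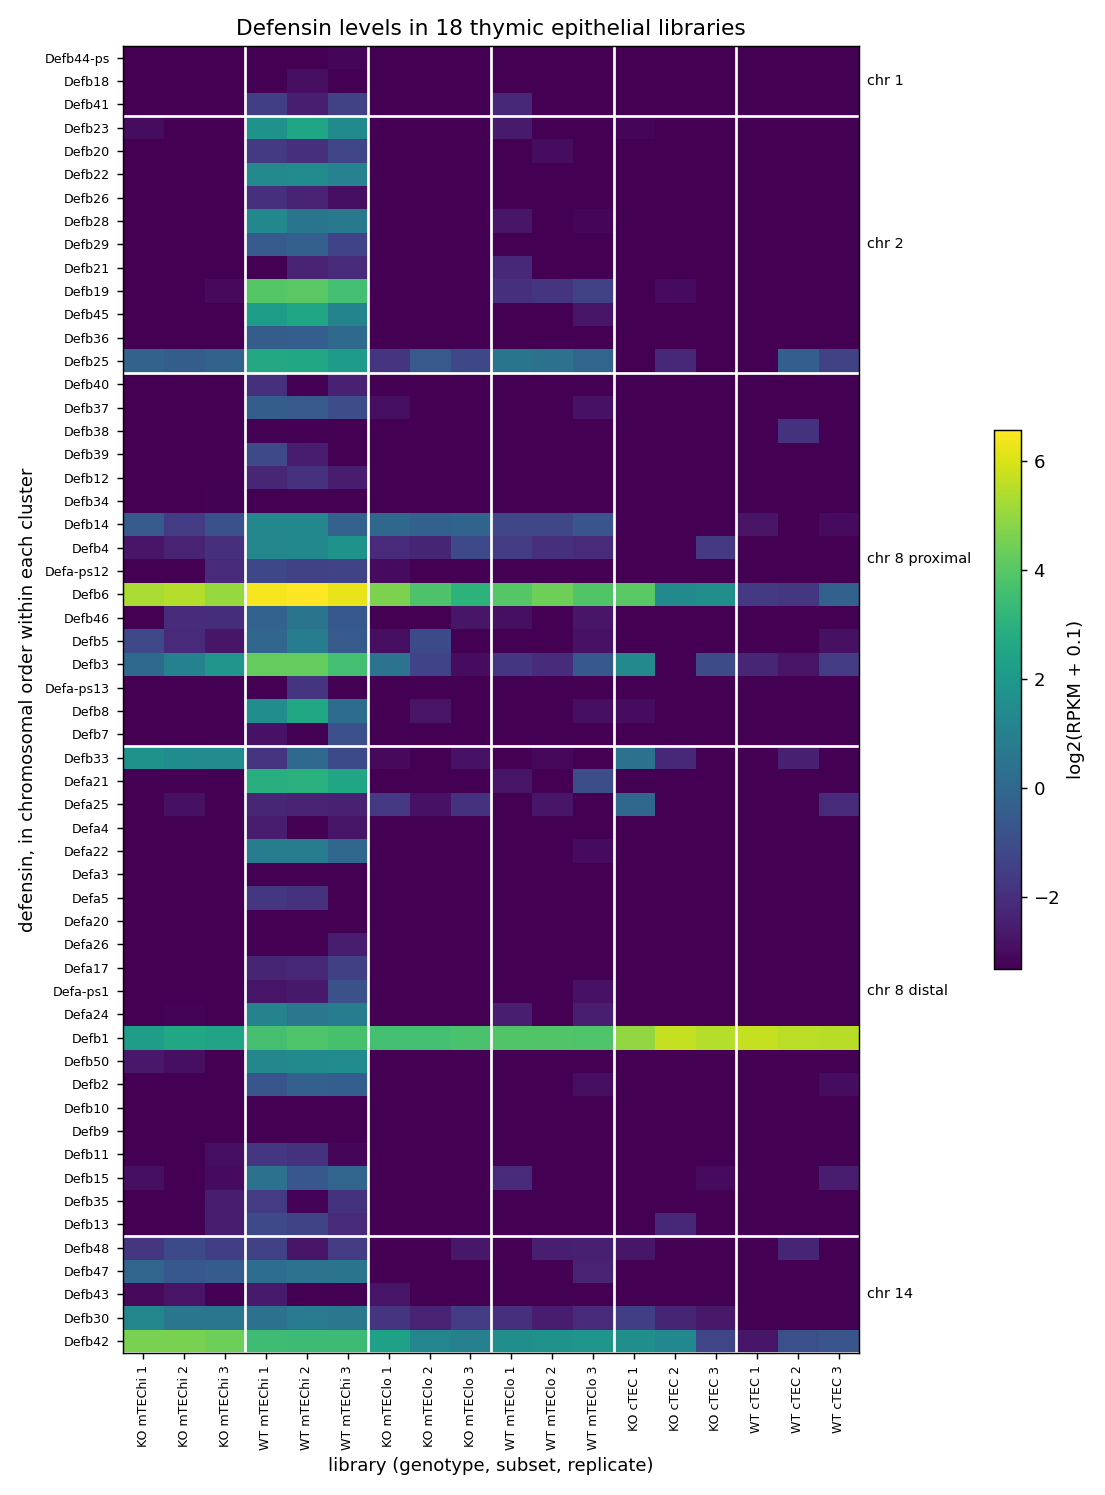
Heat map of log2(RPKM + 0.1) for 56 defensins (rows, in chromosomal order within each cluster) in the 18 libraries (columns, with KO left of WT for each population). The WT mTEChi columns are filled across all clusters, the KO mTEChi columns mainly at Defb6, Defb42, Defb1, Defb33, Defb3 and Defb30, and Defb1 is the bright row in cTEC.

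Of the 57 defensins, 35 reached 0.1 RPKM in at least 3 of the 18 libraries and were tested with limma across all 19451 such rows. A row was called when its Benjamini-Hochberg adjusted p was under 0.05. For 21 of the 35, fewer than 3 libraries outside WT mTEChi reached that level, so these could pass only by being high there, and the counts that follow describe the tested members and not the family. The 22 untested defensins never exceeded 0.444 RPKM. The highest values of 16 of these 22 were in a WT mTEChi library, and the highest single untested values were Defa-ps1 at 0.444 RPKM and Defb7 at 0.440 RPKM, both in WT mTEChi replicate 3.

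In Aire KO against WT mTEChi, 29 of the 35 tested defensins were called lower, 1 was called higher (Defb33) and 5 were not called. Of all tested rows, 52.8% were called lower and 9.57% higher, with a median difference of -0.39 on the log2(RPKM + 0.1) scale. The median of the 35 defensins was -2.66. Every KO mTEChi library lay below every WT mTEChi library for 31 of the 35, against 60.1% of all tested rows, and above for 2 (Defb33 and Defb42), against 14.1%. Under quantile normalization, which moved the median of all tested rows to 0.08, the split became 20 lower and 4 higher. Among the 14 defensins that would also pass the level filter without WT mTEChi, 8 were called lower and 1 higher. These shares lay near the 52.8% and 9.57% of all tested rows.

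**Figure D3:**
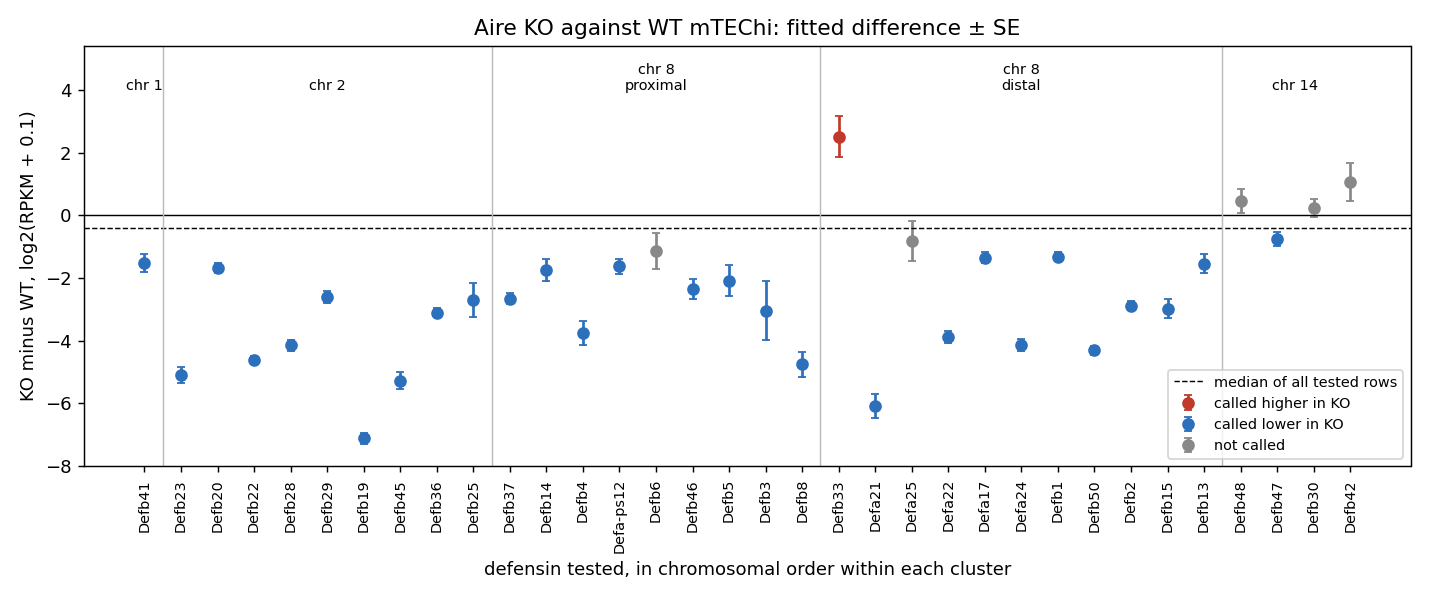
Fitted difference of KO minus WT mTEChi on the log2(RPKM + 0.1) scale for 34 of the 35 tested defensins, with 1 SE, grouped by cluster. Nearly all lie below the dashed median of all tested rows (-0.39), and those above it are Defb33 (2.51) and, on chromosome 14, Defb42 (1.06), Defb48 (0.46) and Defb30 (0.22).

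Markers listed for blood cells did not all move alike in KO against WT mTEChi. Of all rows tested there, 52.8% were called lower and 9.57% higher. Most of the neutrophil markers are antimicrobial genes themselves. The 7 neutrophil markers in the tables summed to 14.8 to 20.4 RPKM in KO mTEChi and 360 to 477 RPKM in WT mTEChi, and all 7 were called lower, among them Mpo at 0.172 RPKM in KO mTEChi and 26.0 RPKM in WT mTEChi. Camp, Ltf, Ngp, S100a8 and S100a9, which are 5 of the 7, are also in the list of antimicrobial proteins and made up 98.9% to 99% of the sum in KO mTEChi and 92.7% to 95.1% in WT mTEChi. Mpo and Elane, which are not, summed to 0.148 to 0.232 RPKM in KO mTEChi and 22.6 to 29.5 RPKM in WT mTEChi. Elane was at 0 in KO mTEChi replicates 1 and 3, and none of the 7 was at 0 in WT mTEChi. The 6 dendritic cell and macrophage markers summed to 21.6 to 24.2 RPKM in KO mTEChi and 23.6 to 25.8 RPKM in WT mTEChi, and 5 were called lower and 1 higher. The 6 thymocyte markers summed to 10.2 to 19.0 RPKM in KO mTEChi and 24.8 to 42.5 RPKM in WT mTEChi, with 2 called lower. Among epithelial markers, 2 were lower and 2 higher of 8 medullary ones, and 3 were lower and 3 higher of 7 cortical ones. Of 12 housekeeping genes, 4 were called lower and 0 higher (median -0.09). The part of blood cells in the defensin differences was not tested.

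The chromosome 2 cluster, which holds beta defensins known mainly from the male reproductive tract, fell in every tested member. All 9 tested members of its 11 were called lower in KO mTEChi, against 52.8% of all tested rows. Of these members, only Defb19 and Defb25 would pass the level filter without WT mTEChi. The others could pass only by being high there. Defb19, expressed in testis, had 0, 0 and 0.0179 RPKM in KO mTEChi, against 15.6, 16.4 and 12.0 RPKM in WT mTEChi. KO mTEChi held 100 aligned bases of it in all, against 89586 to 118172 per WT mTEChi library. Its difference was -7.11 ± 0.18 (SE) on the log2(RPKM + 0.1) scale, with an adjusted p of 2.1e-13. Defb23 had 0.0269, 0 and 0 RPKM in KO mTEChi, against 3.24, 5.69 and 2.55 RPKM in WT mTEChi (-5.10 ± 0.247, adjusted p = 8e-11). Both were thus present in every WT mTEChi library and absent or barely present under Aire deficiency.

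A further 6 chromosome 2 members were listed at 0 in all 3 KO mTEChi libraries, so no fold is given for them. Defb45 had 4.6, 5.59 and 2.06 RPKM in WT mTEChi (adjusted p = 1e-10). Defb22, the mouse counterpart of a primate protein that coats sperm, had 2.42, 2.62 and 2.0 RPKM in WT mTEChi (adjusted p = 2.5e-13). Every WT mTEChi library thus held both transcripts, and no KO mTEChi library did. Defb28 had 2.37, 1.33 and 1.49 RPKM in WT mTEChi, and Defb36 had 0.651, 0.684 and 0.960 RPKM. Defb29 had 0.594, 0.716 and 0.299 RPKM in WT mTEChi, and Defb20 had 0.221, 0.15 and 0.320 RPKM. The adjusted p of these 4 lay between 1.6e-11 and 1.6e-07. For Defb20, the lowest of the 4, quantile normalization ended the call (adjusted p = 0.3).

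Defb25, at the end of the cluster, was the exception in level. It had 0.790, 0.648 and 0.787 RPKM in KO mTEChi, against 6.15, 5.87 and 4.36 RPKM in WT mTEChi (-2.71 ± 0.546, adjusted p = 0.00043). It was also the chromosome 2 member found in every mTEClo library, with 0.180, 0.570 and 0.340 RPKM in KO mTEClo and 1.32, 1.18 and 0.846 RPKM in WT mTEClo. Those mTEClo groups did not overlap, but the difference of -1.46 was not called (adjusted p = 0.083). The 2 untested members, Defb21 and Defb26, were at 0 in every KO mTEChi library and reached 0.127 and 0.158 RPKM in WT mTEChi.

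Of 7 tested alpha defensins, 6 were called lower in KO mTEChi, against 52.8% of all tested rows. These 6 passed the level filter only through WT mTEChi. Defa25, which would pass without it, was not called. Defa21, a Paneth cell alpha defensin, was listed at 0 in all 3 KO mTEChi libraries, against 7.25, 7.61 and 5.45 RPKM in WT mTEChi (adjusted p = 1.8e-09). Defa22 was also listed at 0 in KO mTEChi, against 1.72, 1.67 and 0.869 RPKM in WT mTEChi (adjusted p = 9.6e-11). Defa24 had 0, 0.00744 and 0 RPKM in KO mTEChi, against 2.05, 1.43 and 1.69 RPKM in WT mTEChi (-4.14 ± 0.193, adjusted p = 5e-11). In these 3 genes no KO mTEChi library came near a WT mTEChi library.

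The remaining alpha members were low. Defa17 was at 0 in KO mTEChi, against 0.105, 0.119 and 0.270 RPKM in WT mTEChi (adjusted p = 3.8e-06). The pseudogene Defa-ps12 had 0, 0 and 0.128 RPKM in KO mTEChi, against 0.337, 0.278 and 0.307 RPKM in WT mTEChi (-1.63 ± 0.232, adjusted p = 1.6e-05). Under quantile normalization the call of Defa17 was lost (adjusted p = 0.61) and Defa-ps12 turned to 0.11 (adjusted p = 0.71). Defa25 had 0, 0.0365 and 0 RPKM in KO mTEChi and 0.110, 0.0903 and 0.0874 RPKM in WT mTEChi and was not called (-0.82, adjusted p = 0.29), and its highest value was 0.901 RPKM in KO cTEC replicate 1. The other 7 alpha rows were not tested. Alpha defensins are close copies of each other. In the GENCODE transcripts, a median of 40.3% of an alpha defensin's 100-base windows also occurred in another gene, and 10 of 13 alpha but 3 of 43 beta members had any such window. The shared windows made up 90.6% of Defa17, 88.1% of Defa5, 40.4% of Defa21 and 40.3% of Defa22, so how the alignment divided reads among these rows is uncertain.

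The promoters shown are those of an alpha and a chromosome 2 beta defensin listed at 0 in KO mTEChi and of 2 beta defensins with higher values there, and give the letters behind the comparison with all promoters. Each line holds the 250 bases before the RefSeq start on GRCm38.p6, 5′ to 3′ on the gene's strand. Capitals mark CG dinucleotides and a TATAAA that begins and ends 45 to 16 bases before the start.

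Defa21, chr8:21025295-21025544, plus strand: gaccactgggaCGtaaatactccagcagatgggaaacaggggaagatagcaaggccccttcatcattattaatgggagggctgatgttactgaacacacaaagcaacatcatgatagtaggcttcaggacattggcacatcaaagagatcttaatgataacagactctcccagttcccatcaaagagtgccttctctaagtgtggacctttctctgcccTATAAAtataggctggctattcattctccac
Defb22, chr2:152490139-152490388, minus strand: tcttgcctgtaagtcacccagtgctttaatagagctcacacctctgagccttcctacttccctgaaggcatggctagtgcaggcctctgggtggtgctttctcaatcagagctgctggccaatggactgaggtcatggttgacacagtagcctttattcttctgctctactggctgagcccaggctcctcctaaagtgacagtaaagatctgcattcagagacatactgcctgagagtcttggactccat
Defb33, chr8:20892417-20892666, plus strand: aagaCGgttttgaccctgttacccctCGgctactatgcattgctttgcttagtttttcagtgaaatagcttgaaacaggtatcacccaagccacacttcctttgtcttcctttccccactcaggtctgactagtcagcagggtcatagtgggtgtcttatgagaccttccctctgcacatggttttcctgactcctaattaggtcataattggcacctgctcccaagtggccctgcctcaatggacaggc
Defb42, chr14:63046741-63046990, plus strand: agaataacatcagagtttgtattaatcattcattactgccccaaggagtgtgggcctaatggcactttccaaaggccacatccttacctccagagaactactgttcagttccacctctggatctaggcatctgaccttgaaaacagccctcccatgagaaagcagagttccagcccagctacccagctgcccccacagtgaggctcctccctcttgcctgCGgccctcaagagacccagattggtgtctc

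RefSeq promoters were found for 32 of the 57 members (33 promoters). A median of 1 CG was found per defensin promoter, against 6 in all 32841 promoters, and GC content was 46.8% against 52.4%. TATAAA in that window on the gene's strand was found in 5 of 33 defensin promoters (15.15%) and in 2.14% of all promoters. The 5 were Defa20, Defa21, Defa22, Defb15 and Defb48. The Defa22 promoter at chr8:21162027-21162276 had the same 250 bases as that of Defa21 (250 of 250), so it is not printed again. CCAAT on either strand was found in 51.52% of defensin promoters and 33.86% of all promoters. Both motifs occurred in members that fell and in members that did not: Defb48, with TATAAA, was not called in KO mTEChi, and CCAAT was found in Defa21, Defb22, Defb33 and Defb42 alike.

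On the proximal chromosome 8 block, 8 of 9 tested members were called lower in KO mTEChi, against 52.8% of all tested rows. Of these members, Defb37, Defb8, Defb46 and Defa-ps12 passed the level filter only through WT mTEChi. Defb3, a beta defensin induced in mouse epithelia by bacteria, had 0.980, 1.95 and 3.46 RPKM in KO mTEChi, against 18.9, 18.7 and 12.2 RPKM in WT mTEChi (-3.04 ± 0.944, adjusted p = 0.011). Its KO mTEChi libraries varied, with replicate 3 the highest, yet none reached a WT mTEChi library. With a pseudocount of 0.01 RPKM its call was lost (-3.11, adjusted p = 0.09). Defb4, likewise inducible in epithelia, had 0.0503, 0.0957 and 0.154 RPKM in KO mTEChi, against 2.21, 2.37 and 3.18 RPKM in WT mTEChi (-3.76 ± 0.391, adjusted p = 5.2e-07). Defb8 was listed at 0 in KO mTEChi, against 2.75, 6.06 and 1.02 RPKM in WT mTEChi (adjusted p = 4.6e-08). Defb14, the mouse counterpart of human beta defensin 3, had 0.594, 0.232 and 0.447 RPKM in KO mTEChi, against 2.26, 2.28 and 0.757 RPKM in WT mTEChi (-1.75 ± 0.345, adjusted p = 0.00036). In each of these 4 genes the KO mTEChi libraries lay below the WT mTEChi libraries. Defb46 had 0, 0.141 and 0.144 RPKM in KO mTEChi, against 0.755, 1.30 and 0.561 RPKM in WT mTEChi (-2.36 ± 0.319, adjusted p = 9.3e-06). Defb5 had 0.352, 0.126 and 0.0511 RPKM in KO mTEChi, against 0.854, 1.68 and 0.591 RPKM in WT mTEChi (-2.08 ± 0.495, adjusted p = 0.0017). Defb37 was at 0 in KO mTEChi, against 0.649, 0.572 and 0.403 RPKM in WT mTEChi (adjusted p = 1.7e-09). Quantile normalization ended the calls of Defb14 (-0.52, adjusted p = 0.35), Defb46 (-0.70, adjusted p = 0.086) and Defb5 (-0.52, adjusted p = 0.43).

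Among the symbols that start with Defa or Defb, Defb6, an epithelial beta defensin, was the most abundant in both mTEChi groups. It had 39.5, 44.6 and 32.7 RPKM in KO mTEChi, against 87.2, 94.6 and 75.5 RPKM in WT mTEChi. The groups did not overlap, yet the difference of -1.14 ± 0.56 was not called (adjusted p = 0.088). It was called when only the 6 mTEChi libraries were fitted (-1.14, adjusted p = 6.9e-05), with library weights (adjusted p = 0.0048) and with a pseudocount of 1 RPKM (adjusted p = 0.042). In the other groups it was far more variable, with 16.1, 2.49 and 2.90 RPKM in KO cTEC alone.

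The beta defensins at the far end of the distal chromosome 8 block also fell. In mice, loss of a run of beta defensins from there has been linked to male sterility. Defb50 had 0.0618, 0.0340 and 0 RPKM in KO mTEChi, against 2.29, 2.46 and 2.63 RPKM in WT mTEChi (-4.31 ± 0.153, adjusted p = 2.5e-12). Defb2 was at 0 in KO mTEChi, against 0.532, 0.726 and 0.673 RPKM in WT mTEChi (adjusted p = 1.2e-10). Defb15 had 0.0336, 0 and 0.0212 RPKM in KO mTEChi, against 1.22, 0.544 and 0.828 RPKM in WT mTEChi (-2.98 ± 0.308, adjusted p = 5.1e-07). All 3 were at or near 0 in KO mTEChi and clearly present in each WT mTEChi library. Defb13 had 0, 0 and 0.0732 RPKM in KO mTEChi, against 0.353, 0.309 and 0.132 RPKM in WT mTEChi (-1.54 ± 0.296, adjusted p = 0.00028), but stood at 0.03 under quantile normalization (adjusted p = 0.94). On chromosome 1, Defb41 was at 0 in KO mTEChi, against 0.257, 0.0779 and 0.274 RPKM in WT mTEChi (adjusted p = 0.00017). Quantile normalization ended that call (adjusted p = 0.67). Defb50, Defb2, Defb15, Defb13 and Defb41 all passed the level filter only through WT mTEChi.

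Defb1, the constitutive beta defensin of kidney and other epithelia, had a pattern of its own. It was highest in cortical cells, with 31.2, 51.7 and 44.4 RPKM in KO cTEC and 52.4, 46.2 and 44.8 RPKM in WT cTEC. In mTEClo it had 12.2, 12.1 and 13.1 RPKM in KO and 14.5, 14.6 and 14.3 RPKM in WT. In mTEChi it had 4.38, 5.86 and 5.31 RPKM in KO, against 12.4, 14.1 and 12.7 RPKM in WT. The order of group means was thus cTEC, then WT mTEClo, WT mTEChi, KO mTEClo and last KO mTEChi. KO and WT overlapped in cTEC, and WT mTEChi overlapped with KO mTEClo. Its mTEChi difference was -1.32 ± 0.14 (adjusted p = 6.6e-07), and it was the defensin called lower in WT mTEChi than in WT cTEC (-1.86 ± 0.14, adjusted p = 4.8e-09).

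Defb33 was higher in Aire KO mTEChi. It had 3.23, 2.69 and 2.63 RPKM in KO mTEChi, against 0.182, 0.941 and 0.369 RPKM in WT mTEChi, or 11872 to 18005 aligned bases per KO library against 1134 to 7350 per WT library. The difference was 2.51 ± 0.658 (adjusted p = 0.0035), and it held when any 1 of the 6 mTEChi libraries was left out. With a pseudocount of 0.01 RPKM it was 2.79 and no longer called (adjusted p = 0.077). In mTEClo it stayed at or below 0.0380 RPKM in KO and 0.0173 RPKM in WT. In cTEC it had 1.21, 0.122 and 0 RPKM in KO and 0, 0.0818 and 0 RPKM in WT, with KO cTEC replicate 1 the highest cortical library.

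Of the rows next to Defb33, at the start of the distal block, 3 were also high in KO mTEChi. They lie outside the symbol rule and were chosen for their position, with their values known. Gm15056, which RefSeq lists with the synonym Defb52, had 82.5, 84.5 and 77.8 RPKM in KO mTEChi, against 15.1, 17.3 and 12.3 RPKM in WT mTEChi (2.46 ± 1.07, adjusted p = 0.055). Gm21944, with the RefSeq synonym Defb48-ps, had 5.85, 6.45 and 5.37 RPKM in KO mTEChi, against 2.06, 1.43 and 0.970 RPKM in WT mTEChi (1.97 ± 0.638, adjusted p = 0.014). AY761185 had 11.1, 10.4 and 8.92 RPKM in KO mTEChi, against 2.30, 1.77 and 1.62 RPKM in WT mTEChi (2.36 ± 0.479, adjusted p = 0.00046). None of these 3 had overlapping mTEChi groups, though Gm15056 was not called. Gm6040, with the RefSeq synonym Defb51, lies between Gm15056 and AY761185 and was low in both groups. It had 0.0809, 0.103 and 0.163 RPKM in KO mTEChi and 0.243, 0.0762 and 0.0537 RPKM in WT mTEChi, with overlap.

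Gm15056, Gm21944 and AY761185 were called higher in KO mTEClo and in KO cTEC. Gm15056 had 5.77, 2.89 and 0.144 RPKM in KO mTEClo and 0.0481, 0 and 0.236 RPKM in WT mTEClo (adjusted p = 0.049), with overlap between the groups. In cTEC it had 16.6, 10.7 and 1.41 RPKM in KO and 0.0357, 0.123 and 1.23 RPKM in WT (adjusted p = 0.01). Further along the block the pattern turned. Gm14851, which RefSeq names Defa38, was at 0 in KO mTEChi and averaged 4.33 ± 0.628 RPKM in WT mTEChi (adjusted p = 4.2e-11). AY761184 was also at 0 in KO mTEChi and averaged 2.47 ± 1.27 RPKM in WT mTEChi (adjusted p = 2.6e-08).

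**Figure D4:**
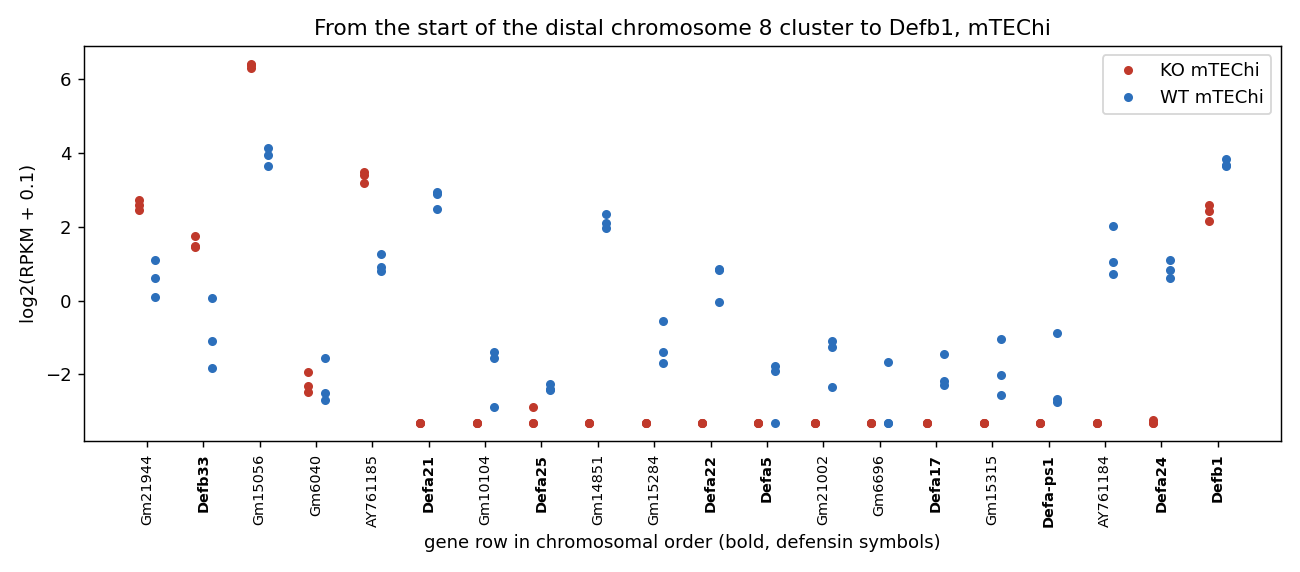
Levels as log2(RPKM + 0.1) in the mTEChi libraries (red, KO, on the left; blue, WT, on the right) of 20 gene rows from Gm21944 to Defb1 that reach 0.1 RPKM in any mTEChi library, in chromosomal order and not to distance, with 1 point per library. Gm21944, Defb33, Gm15056 and AY761185 are higher in KO, and from Defa21 to Defa24 the KO points lie at or near the floor of 0 RPKM.

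The chromosome 14 cluster was the other place where tested defensins were not lowered together in KO mTEChi. Defb42, a beta defensin known from the epididymis, had 23.9, 23.6 and 20.9 RPKM in KO mTEChi, against 11.1, 10.7 and 10.8 RPKM in WT mTEChi. The groups did not overlap, and the difference of 1.06 ± 0.614 was not called (adjusted p = 0.15). It was called when only the mTEChi libraries were fitted (1.06, adjusted p = 3.3e-06), with library weights (1.08, adjusted p = 0.025) and with a pseudocount of 1 RPKM (adjusted p = 0.012). Defb30 had 2.21, 1.38 and 1.36 RPKM in KO mTEChi and 1.19, 1.53 and 1.42 RPKM in WT mTEChi, with overlap (0.22 ± 0.29, adjusted p = 0.53). The GENCODE models of Defb30 and Defb42 overlap on opposite strands, and no source says that strand was used, though the authors' rows for the 2 genes do not overlap. Defb48 had 0.197, 0.371 and 0.254 RPKM in KO mTEChi and 0.285, 0.0490 and 0.228 RPKM in WT mTEChi, also with overlap (0.46, adjusted p = 0.3).

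Defb47 was the chromosome 14 member called lower, and its direction rested on the scaling. It had 0.831, 0.566 and 0.634 RPKM in KO mTEChi, against 1.08, 1.25 and 1.29 RPKM in WT mTEChi (-0.76 ± 0.213, adjusted p = 0.0056). Under quantile normalization it was called higher (0.76, adjusted p = 0.007), as were Defb48 (1.77, adjusted p = 0.00045), Defb30 (1.72, adjusted p = 5.2e-05) and Defb33 (4.29, adjusted p = 2.1e-05). The fifth member, Defb43, did not exceed 0.0659 RPKM. Within Aire KO cells, all 4 tested members of this cluster were higher in mTEChi than in mTEClo, as 23.4% of all tested rows were. Defb42 had 4.98, 2.24 and 1.90 RPKM in KO mTEClo, below each of its KO mTEChi values (2.99 ± 0.614, adjusted p = 0.00041). Defb47 was at 0 in all KO mTEClo libraries.

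**Figure D5:**
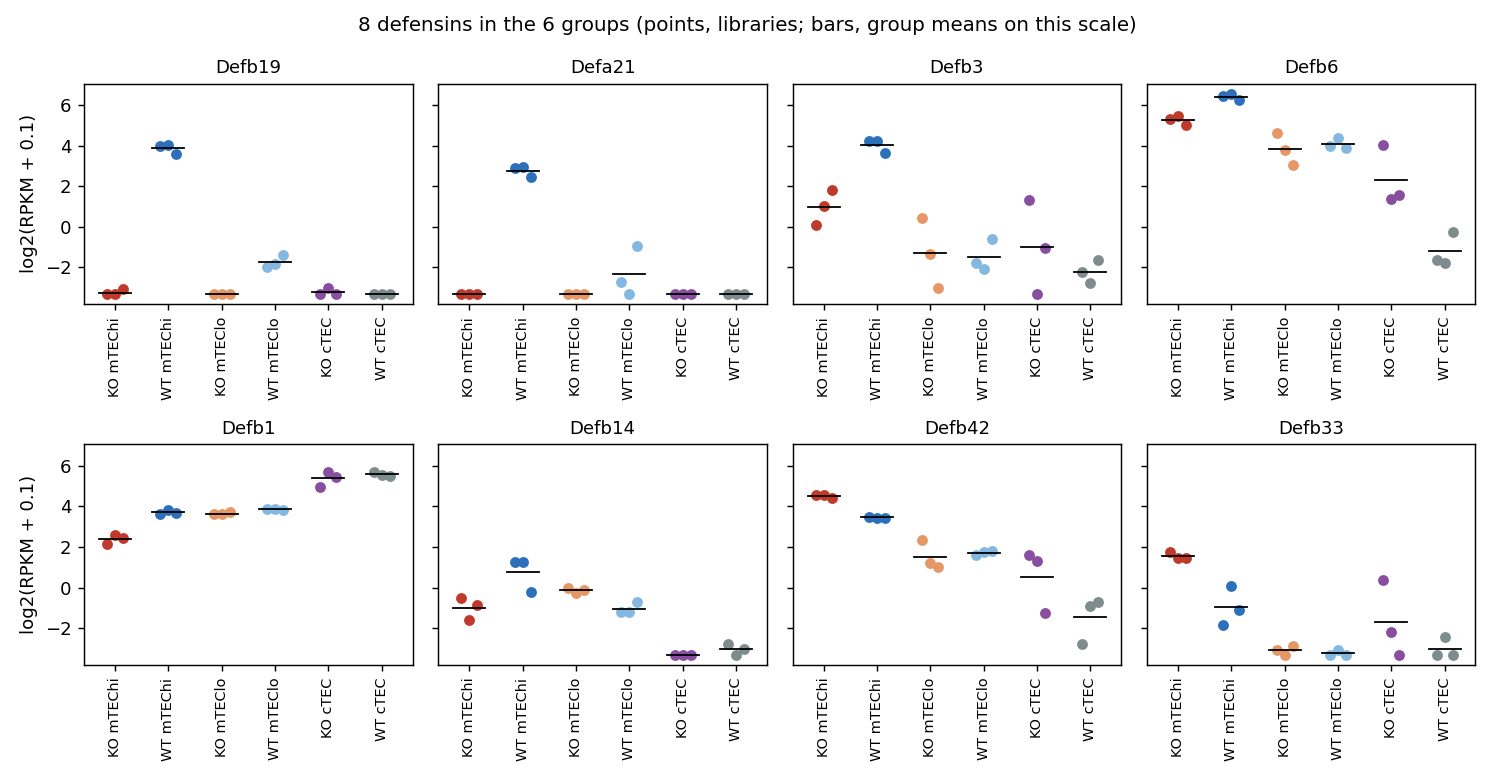
Levels as log2(RPKM + 0.1) of 8 defensins in the 6 groups, with 1 point per library, bars at the group means on this scale, and KO left of WT for each population. Defb19 and Defa21 stand high in WT mTEChi, Defb6 and Defb3 are highest there but present in KO mTEChi, Defb1 is highest in cTEC, and Defb33 and Defb42 are highest in KO mTEChi.

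In mTEClo and cTEC few defensins were called between genotypes. Of the 35 tested, 21 passed the level filter only through WT mTEChi and were mostly near 0 in these cells. The low counts were thus partly set by the filter and do not show that genotype has no effect there. The same limit holds for the other comparisons without WT mTEChi. In KO against WT mTEClo, 1 of 35 was called lower and 0 higher, against 8.04% and 7.93% of all tested rows, and at an unadjusted p under 0.05 the counts were 4 lower and 1 higher. The libraries did not overlap for 3 lower (Defb19, Defb25 and Defb1) and 1 higher (Defb14), as for 22.6% and 17.2% of all tested rows. The called gene was Defb19, at 0 in KO mTEClo, against 0.154, 0.178 and 0.282 RPKM in WT mTEClo (adjusted p = 8e-05). Defb14 had 0.889, 0.738 and 0.819 RPKM in KO mTEClo and 0.329, 0.328 and 0.515 RPKM in WT mTEClo. Its groups did not overlap, and the difference of 0.92 ± 0.345 was not called (adjusted p = 0.085). The count of calls was 3 without WT mTEClo replicate 2, 4 when only the mTEClo libraries were fitted and 6 with library weights.

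In KO against WT cTEC, 3 defensins were called higher and 0 lower, against 13.3% and 6.76% of all tested rows. At an unadjusted p under 0.05, 3 were higher and 1 lower. The libraries did not overlap for 2 higher (Defb6 and Defb30) and 0 lower, as for 15.2% and 11% of all tested rows. Defb6 had 16.1, 2.49 and 2.90 RPKM in KO cTEC, against 0.221, 0.195 and 0.746 RPKM in WT cTEC (3.54 ± 0.56, adjusted p = 0.00034). Without KO cTEC replicate 1 the difference was 2.69 (adjusted p = 0.0004). Defb42 had 2.93, 2.35 and 0.317 RPKM in KO cTEC and 0.0461, 0.432 and 0.512 RPKM in WT cTEC, with overlap (2.01 ± 0.614, adjusted p = 0.03). Its call was lost without KO cTEC replicate 1 (1.48, adjusted p = 0.14), without KO cTEC replicate 2 (1.63, adjusted p = 0.1) and without WT cTEC replicate 1 (1.35, adjusted p = 0.16). Defb30 had 0.259, 0.104 and 0.0592 RPKM in KO cTEC and was at 0 in WT cTEC (adjusted p = 0.009). When only the cTEC libraries were fitted, 0 defensins were called, and Defb6 had an adjusted p of 0.13.

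Medullary markers also differed between KO and WT cTEC. Of the 9 medullary markers listed, 8 were in the tables, and none of these was at 0 in any cTEC library. They summed to 1435, 1498 and 1524 RPKM in KO cTEC and 1059 to 1282 RPKM in WT cTEC. Cldn4 averaged 64.5 RPKM in KO cTEC and 10.5 RPKM in WT cTEC, and Fezf2 21.5 RPKM in KO cTEC and 5.70 RPKM in WT cTEC. KO cTEC replicate 1, with the highest Aire (95.6 RPKM), also had the highest Defb6, Defb3 (2.43 RPKM), Defb33 (1.21 RPKM) and Defa25 (0.901 RPKM) of the cTEC libraries. Its summed medullary markers, however, were the lowest of the KO cTEC libraries. Its Defb1 (31.2 RPKM) was the lowest of the cTEC libraries, and its Defb4 and Defb25 were at 0. The part of medullary markers in the cTEC results was not tested.

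The test of the difference between the mTEChi and mTEClo genotype effects called 26 defensins more negative in mTEChi and 1, Defb33, more positive, against 40.9% and 6.01% of all tested rows. Quantile normalization gave 17 and 4. As 21 of the 35 tested passed the level filter only through WT mTEChi, these counts describe the tested members and not the family. Defb19 differed by -5.53 ± 0.254 (adjusted p = 2.8e-10), although it was called lower in both subsets, and Defb1 by -1.11 ± 0.199 (adjusted p = 0.00027). For Defb33 the difference was 2.34 ± 0.93 with an adjusted p of 0.049. That call was lost when any 1 of 11 of the 12 mTEC libraries was left out (1.91 to 2.45, adjusted p = 0.063 to 0.13).

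Within WT cells nearly all tested defensins were higher in mTEChi than in mTEClo or cTEC. Of the 35 tested, 21 passed the level filter only through WT mTEChi. For these, being higher there was largely set by the filter. WT mTEChi had 32 of 35 tested defensins called higher and 0 lower than WT mTEClo, against 41.6% and 31.1% of all tested rows. Against WT cTEC, 33 were called higher and 1 lower (Defb1), against 46.6% and 31.8%. The libraries did not overlap for 32 higher and 1 lower in both comparisons, as for 44.1% and 34.4% of all tested rows against WT mTEClo and 47.4% and 32.8% against WT cTEC. Defb19 had 0.154, 0.178 and 0.282 RPKM in WT mTEClo and 0 in WT cTEC, far below its WT mTEChi values (5.61 ± 0.18 over WT mTEClo, adjusted p = 1e-12). Defb6 had 15.5, 20.8 and 14.7 RPKM in WT mTEClo (2.34 ± 0.56, adjusted p = 0.0014), and Defb3 had 0.193, 0.139 and 0.554 RPKM (5.52 ± 0.944, adjusted p = 7e-05). The call of Defb33 in WT mTEChi over WT cTEC was lost without WT mTEChi replicate 2 (1.58, adjusted p = 0.055). That of Defb48 was lost without WT mTEChi replicate 1 or 3 or WT cTEC replicate 1 or 3 (0.80 to 0.91, adjusted p = 0.064 to 0.087). The 3 tested defensins not called between WT mTEChi and WT mTEClo were Defb1, Defb48 and Defa25. All 3 are among the 14 that would pass the level filter without WT mTEChi.

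WT mTEClo against WT cTEC gave 8 defensins higher and 1 lower, against 24.6% and 18.2% of all tested rows. The libraries did not overlap for 7 higher and 1 lower, as for 29.3% and 23.2%. The 8 were Defb6, Defb42, Defb14, Defb25, Defb4, Defb19, Defb30 and Defa24, and Defb1 was the lower one (-1.72 ± 0.14, adjusted p = 1.2e-07). Defb6 differed most, at 5.29 ± 0.56 (adjusted p = 1.6e-06). Defa24 rested on 0.0762, 0 and 0.0796 RPKM in WT mTEClo with WT cTEC at 0 (adjusted p = 0.03), and its call was lost without WT mTEClo replicate 1 (adjusted p = 0.13), without WT mTEClo replicate 3 (adjusted p = 0.14) and without any 1 WT cTEC library (adjusted p = 0.064 to 0.066).

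The same contrasts were read in Aire KO cells. KO mTEChi had 8 defensins called higher and 2 lower than KO mTEClo, against 23.4% and 43.7% of all tested rows. The libraries did not overlap for 7 higher and 3 lower, as for 26.7% and 47.8%. The 8 were the 4 of chromosome 14, Defb33, Defb6, Defb3 and Defb50, and the 2 were Defb1 and Defb14. Defb33 had 0.0198, 0 and 0.0380 RPKM in KO mTEClo (4.64 ± 0.658, adjusted p = 1.1e-05). Without KO mTEChi replicate 2 the count fell to 6, and the calls of Defb6, Defb3, Defb14 and Defb50 were each lost without at least 1 library. Against KO cTEC, 11 were called higher and 1 lower in KO mTEChi, against 26.6% and 41.2%. The libraries did not overlap for 9 higher and 1 lower, as for 27.1% and 41%. These were the 4 of chromosome 14, Defb33, Defb6, Defb14, Defb25, Defb5, Defb46 and Defb50, with Defb1 lower (-2.99 ± 0.14, adjusted p = 2.8e-11). Of these calls, 3 were lost on leaving out single libraries. Defb46 was lost without KO mTEChi replicate 2 or 3 or any 1 KO cTEC library (adjusted p = 0.05 to 0.12). Defb5 was lost without KO mTEChi replicate 1 or any 1 KO cTEC library (adjusted p = 0.051 to 0.15). Defb50 was lost without KO mTEChi replicate 1 or 2 or any 1 KO cTEC library (adjusted p = 0.075 to 0.24). These comparisons share their KO mTEChi libraries.

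Other antimicrobial genes were set beside the defensins in KO against WT mTEChi. Of 26 tested antimicrobial proteins, 22 were called lower and 0 higher, with a median of -2.69, against 52.8% lower, 9.57% higher and a median of -0.39 over all tested rows. The 5 genes shared with the neutrophil list are among the 26. Ngp, Pla2g2a, Reg3a and Retnlb passed the level filter only through WT mTEChi. Retnlb, a resistin-like protein of goblet cells, was at 0 in KO mTEChi and averaged 4.96 ± 1.1 RPKM in WT mTEChi (adjusted p = 4.9e-13). Reg3g, an intestinal lectin that binds bacteria, averaged 83.5 ± 4.79 RPKM in KO mTEChi and 549 ± 50.7 RPKM in WT mTEChi (-2.71 ± 0.33, adjusted p = 3e-06). The protease inhibitor Slpi averaged 1.5 ± 0.28 RPKM in KO mTEChi and 35.6 ± 5.16 RPKM in WT mTEChi (adjusted p = 2.1e-10). The lysozyme of macrophages, Lyz2, averaged 349 ± 16.7 RPKM in KO mTEChi and 321 ± 14.9 RPKM in WT mTEChi and was not called (adjusted p = 0.74).

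Among the 11 genes of defensin processing and reception, KO mTEChi had 9 lower and 2 higher by the same test, again against 52.8% and 9.57% of all tested rows. Mmp7, which matures mouse alpha defensins, averaged 5.91 ± 1.13 RPKM in KO mTEChi and 26.4 ± 2.09 RPKM in WT mTEChi (-2.15 ± 0.466, adjusted p = 0.00081). Ccl20, the chemokine ligand of Ccr6, averaged 10.9 ± 0.421 RPKM in KO mTEChi and 80.4 ± 8.23 RPKM in WT mTEChi (adjusted p = 6.2e-05). Ccr6, a receptor that also binds some beta defensins, averaged 13.2 ± 0.589 RPKM in KO mTEChi and 6.89 ± 0.89 RPKM in WT mTEChi (0.94 ± 0.356, adjusted p = 0.031). The other gene called higher was the lysosomal protease Ctss.

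Of 14 tested regulators that can induce defensins in epithelia, 6 were called lower and 3 higher, with a median of -0.06. The share called lower was below the 52.8% of all tested rows, of which 9.57% were higher. Il22ra1, a chain of the interleukin 22 receptor, averaged 0.15 ± 0.0573 RPKM in KO mTEChi and 1.09 ± 0.121 RPKM in WT mTEChi (adjusted p = 7.5e-08). Stat3, which acts downstream of that receptor, averaged 180 ± 11.9 RPKM in KO mTEChi and 111 ± 1.8 RPKM in WT mTEChi (adjusted p = 1.2e-05). The NF-kB subunit Rela averaged 29.6 RPKM in KO mTEChi and 29.0 RPKM in WT mTEChi and was not called (adjusted p = 0.79).

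Genes of the tissues in which defensins are best known were read against the same shares, 52.8% lower and 9.57% higher. Of 10 tested Paneth cell markers, 7 fell and 1 rose in KO mTEChi. The list repeats 5 genes counted above, with Ang4, Itln1, Lyz1 and Pla2g2a among the antimicrobial proteins and Mmp7 among the processing genes. Lyz1, the Paneth cell lysozyme, averaged 24.9 ± 3.42 RPKM in KO mTEChi and 158 ± 4.77 RPKM in WT mTEChi (-2.68 ± 0.645, adjusted p = 0.0019). Sox9, a transcription factor that Paneth cells need, was the marker called higher (0.39 ± 0.0844, adjusted p = 0.0008). Of 19 tested epididymal secretion genes, 16 were called lower and 1, Npc2, higher. Of the 24 in the tables, 11 to 13 were at 0 in each KO mTEChi library, against 1 or 2 in each WT mTEChi library. How many passed the level filter only by being high in WT mTEChi was not counted. The direction of these calls may therefore be partly set by the filter. The lipocalin Lcn8 averaged 0.0173 ± 0.015 RPKM in KO mTEChi and 9.05, 11.7 and 9.29 RPKM in the 3 WT mTEChi libraries (-6.43 ± 0.436, adjusted p = 4e-09). Crisp1, another epididymal secretion, averaged 4.53 ± 0.144 RPKM in KO mTEChi and 7.5 ± 1.9 RPKM in WT mTEChi and was not called (adjusted p = 0.076).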

How the data were processed

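The authors deposited 1 table per library with RPKM and a signal, the aligned bases summed over each gene, which is no read count. Per the submitters' processing notes, CASAVA 1.8.2 and the mm10 build were used. The sources used here give no annotation or aligner settings. Tested rows had at least 0.1 RPKM in at least 3 of 18 libraries (19451 of 23063). Genes of the other lists could also pass this filter by being high only in WT mTEChi. The deposited RPKM were tested as log2(RPKM + 0.1) with limma 3.58.1 (R 4.3.3, eBayes with a trend), with 6 group means over all 18 libraries, 9 comparisons, and Benjamini-Hochberg adjustment over all tested rows. Differences of rows near 0 depend on the added 0.1 and are no bounds. The fit was tested on simulated data. The members, lists and tests were chosen with earlier results of these data known. Every defensin called in any comparison, or with a group mean of at least 0.3 RPKM, is named, except that 1 member enters the counts but is not reported here by itself, and from each other gene list up to 6 called members by smallest adjusted p and the highest of WT mTEChi. Lyz2, Ccr6, Rela, Crisp1 and Fezf2 fall outside that rule and were chosen after their values were seen. Depth was 4.54 to 18.1 Gb on genes. As the values are not counts, no counting interval is given. The labels did not pair same-numbered libraries. Within a genotype, deviations of same-numbered libraries correlated weakly, yet above all other pairs, in 4 of the population pairs. The correlations were 0.107, 0.168 and 0.154 for WT mTEClo with WT cTEC, and 0.0389, 0.133 and 0.0948 for WT mTEChi with WT mTEClo. They were 0.0525 to 0.066 for WT mTEChi with WT cTEC, and 0.032 to 0.0451 for KO mTEChi with KO cTEC. KO mTEChi with KO mTEClo, and KO with WT of each population, did not show this. Alternatives were other scalings, pseudocounts, filters, a replicate block, library weights, only the compared groups, and leaving out each library.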

Additional observations from a re-analysis of the deposited data

Results flagged for a closer look

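The genotype effect (KO minus WT) on the log2(RPKM + 0.1) scale differed between mTEChi and mTEClo, by limma's interaction term, for 27 defensins, and 26 are given here. Of all tested rows, 40.9% were called more negative and 6.01% more positive in mTEChi. As 21 of the 35 tested defensins passed the level filter only through WT mTEChi, the count describes the tested members and not the family. Values are the mTEChi effect minus the mTEClo effect, and where a group is at 0 they depend on the added 0.1 and are no bounds. On chromosome 2 it was -5.53 for Defb19, -5.09 for Defb45, -4.86 for Defb23, -4.61 for Defb22, -3.90 for Defb28, -3.10 for Defb36, -2.61 for Defb29 and -1.58 for Defb20. Among alpha defensins it was -5.11 for Defa21, -3.78 for Defa22, -3.58 for Defa24, -1.72 for Defa-ps12 and -1.35 for Defa17. Among beta defensins of chromosomes 1 and 8 it was -4.79 for Defb8, -4.31 for Defb50, -3.81 for Defb4, -2.79 for Defb5, -2.76 for Defb2, -2.67 for Defb14, -2.63 for Defb37, -2.59 for Defb15, -2.24 for Defb46, -1.54 for Defb13, -1.15 for Defb41 and -1.11 for Defb1. The call of Defb41 was lost without WT mTEChi replicate 1 or 3 or WT mTEClo replicate 2 or 3 (adjusted p = 0.063 to 0.067) and when centred on housekeeping genes (-0.85, adjusted p = 0.11). That of Defb46 was lost with a pseudocount of 0.01 RPKM (-3.18, adjusted p = 0.067). Quantile normalization reversed Defb41 (0.23, adjusted p = 0.59). It also ended the calls of Defb5, Defb13, Defb14, Defb15, Defb20, Defb46, Defa17 and Defa-ps12 (-1.3 to -0.01, adjusted p = 0.11 to 0.99). Defb33 alone was positive, at 2.34, and its call was lost without any 1 of the mTEC libraries except WT mTEChi replicate 2 (adjusted p = 0.063 to 0.13). The adjusted p ranged from 9.1e-11 for Defb22 to 0.049 for Defb33.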

How the results depend on the processing

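Over 160 single-gene results and 2498 alternative values, 2350 kept direction and call, 136 lost the call, 6 gained it and 6 reversed. The reversals all came with quantile normalization: Defb47 0.76, Defa-ps12 0.11 and Defb13 0.03 for KO minus WT in mTEChi, Defb41 -0.27 for WT mTEChi minus WT mTEClo, Defb48 -0.40 for WT mTEChi minus WT cTEC, and Defb41 0.23 for the interaction. The cause was not tested. A filter of 1 RPKM in 3 libraries left 19 defensins to test, and 16 were called for KO minus WT in mTEChi, 18 and 19 for WT mTEChi minus WT mTEClo and minus WT cTEC, 7 for KO mTEChi minus KO cTEC and 12 for the interaction. For KO minus WT in mTEClo, 1 call became 4 centred on housekeeping genes, 2 with a pseudocount of 1 RPKM, 3 with 0.01 RPKM, 4 with only the compared groups and 6 with library weights. For KO minus WT in cTEC, 3 calls became 5 and 0 under the housekeeping and compared-groups settings. Leaving out 1 library gave 1 to 3 calls for KO minus WT in mTEClo, 2 to 4 in cTEC, 30 in every case in mTEChi, 6 to 9 for KO mTEChi minus KO mTEClo, 9 to 11 for KO mTEChi minus KO cTEC, 32 to 33 for WT mTEChi minus WT mTEClo, 33 to 34 for WT mTEChi minus WT cTEC, 8 to 10 for WT mTEClo minus WT cTEC and 25 to 27 for the interaction. With the replicate block, 30 defensins were called for KO minus WT in mTEChi, and 3 of 160 gene results lost their call (Defb50 in both KO mTEChi contrasts, 0.37 each, and Defb33 in the interaction, 2.34). Rows of low level, the alpha defensins foremost, rest on few aligned bases and shared sequence.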
